A study of Mus musculus with 40 samples.

Results

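The 9 genes described here are noncoding host genes of small nucleolar RNAs (snoRNAs): Gas5, Snhg1, Snhg3, Snhg5, Snhg6, Snhg8, Snhg12, Snhg20 and 1110038B12Rik. They were chosen by symbol and by reaching 1 CPM (counts scaled to a fixed library total) in at least 5 of 40 libraries. All 9 passed this filter, so that they make up 9 of the 13543 genes tested and of the 22844 genes listed. Snhg3 reached 1 CPM in the fewest libraries of any member, 38 of 40, and Snhg10, another noncoding snoRNA host, fell short with 2 of 40. The CPM values of the members in these libraries thus chose them. The rise of 1110038B12Rik with rapamycin in 9-month-old controls was already known when they were proposed. This value is therefore given as a description without a test. More broadly, members and lists were chosen with earlier results of these data known.

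Messenger RNA was sequenced from the whole extensor digitorum longus (EDL), a lower leg muscle made mostly of fast fibers. In TSCmKO mice the gene Tsc1, whose product restrains the kinase complex mTORC1, is deleted in muscle fibers, whereas control littermates (CON) carried the floxed allele (genotype label Tsc1fl/fl) but no Cre recombinase. All mice bore the strain label Tsc1tm1Djk/J, were 3 or 9 months old and were injected intraperitoneally for 3 days with vehicle or with rapamycin (+RM), an inhibitor of mTORC1. The 8 groups were 3mCON, 3mCON+RM, 3mTSCmKO, 3mTSCmKO+RM, 9mCON, 9mCON+RM, 9mTSCmKO and 9mTSCmKO+RM, each with 5 libraries from 5 mice. The labels give a rapamycin dose of 4 mg per kg, the study text gives another for this treatment, and the dose is therefore uncertain. In lysates of a whole muscle, fewer cells of one type and less RNA per cell cannot be told apart.

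snoRNA host genes carry snoRNAs inside their introns. After splicing, the introns are trimmed to mature snoRNAs, which guide the chemical modification of ribosomal RNA and of other small RNAs: C/D box snoRNAs guide methylation and H/ACA box snoRNAs guide pseudouridylation. The spliced host RNAs are exported, and several of them, Gas5 among them, begin with the same run of pyrimidines as messenger RNAs for ribosomal proteins (a 5′ terminal oligopyrimidine, or TOP, tract), through which mTORC1 controls translation. Because these RNAs hold only short reading frames, translating ribosomes expose them to nonsense-mediated decay. Gas5 was named after its accumulation in growth-arrested cells, and its RNA is known to bind the glucocorticoid receptor. The values below are those of polyadenylated host RNA assigned to annotated transcripts, and mature snoRNAs were not measured.

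All 9 members held their snoRNAs in introns in the GENCODE M21 annotation (build GRCm38). Gas5 (ENSMUSG00000053332, chr1:161034422-161038539, plus strand) spans 4118 bases, has transcripts of 2 to 12 exons and hosts 9 snoRNA loci, the most of any member. Snhg1 (ENSMUSG00000108414, chr19:8723475-8726443, plus strand) follows with 8 loci and Snhg12 (ENSMUSG00000086290, chr4:132308623-132311024, plus strand) with 4. Snhg3 (ENSMUSG00000085241, chr4:132348014-132353686, minus strand), Snhg5 (ENSMUSG00000097195, chr9:88521050-88522929, minus strand) and 1110038B12Rik (ENSMUSG00000092203, chr17:34950238-34952471, minus strand) host 2 loci each. A single locus lies in Snhg6 (ENSMUSG00000098234, chr1:9941959-9944118, minus strand), in Snhg8 (ENSMUSG00000104960, chr3:123507552-123508404, minus strand) and in Snhg20 (ENSMUSG00000086859, chr11:117076008-117078955, plus strand). Of the 30 loci in all, 30 lay in an intron of at least 1 transcript of their host.

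For 4 of the members called higher with rapamycin (below), a hosted snoRNA with both C/D boxes is printed. Snhg12, also called higher, hosts H/ACA snoRNAs besides Snord99 and is not shown. Capitals mark the letters of box C (TGATGA within the first 18 bases) and box D (CTGA within the last 14 bases). Both were found on the transcribed strand in 19 of the 32 annotated entries at these loci, against 20.04% of all 1507 annotated snoRNA genes, many of which are of the H/ACA type. Sequences are those of the GRCm38 genome at the annotated positions, 5′ to 3′.
Snord47 in Gas5 (chr1:161038082-161038158, plus strand): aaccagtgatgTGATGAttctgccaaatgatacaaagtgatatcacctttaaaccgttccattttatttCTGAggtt
Snord50a in Snhg5 (chr9:88521529-88521600, minus strand): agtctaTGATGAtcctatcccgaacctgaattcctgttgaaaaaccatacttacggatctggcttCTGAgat
Snord87 in Snhg6 (chr1:9942463-9942549, minus strand): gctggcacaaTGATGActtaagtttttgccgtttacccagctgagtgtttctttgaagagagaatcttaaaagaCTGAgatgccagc
Snord52 in 1110038B12Rik (chr17:34950952-34951017, minus strand): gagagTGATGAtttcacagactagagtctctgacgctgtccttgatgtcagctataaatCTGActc

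The region around the annotated start was read for the 8 members with an entry among RefSeq start windows of GRCm38.p6. The member without an entry was Snhg6. Lines below run from 35 bases before the start to 25 bases from it and are shown because rapamycin acts on mTORC1, which controls RNAs that begin with pyrimidines. Capitals mark a run of at least 5 pyrimidines (a C followed by C or T) that begins within 15 bases of the start, and the letters TATAA between 40 and 17 bases before the start.
Gas5, first annotated start (chr1:161034566-161034625, plus strand): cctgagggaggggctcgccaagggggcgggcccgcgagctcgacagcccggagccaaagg
Gas5, second annotated start (chr1:161035131-161035190, plus strand): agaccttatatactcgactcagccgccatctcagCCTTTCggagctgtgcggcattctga
Snhg5 (chr9:88522873-88522932, minus strand): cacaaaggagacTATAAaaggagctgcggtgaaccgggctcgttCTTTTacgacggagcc
Snhg8 (chr3:123508312-123508371, minus strand): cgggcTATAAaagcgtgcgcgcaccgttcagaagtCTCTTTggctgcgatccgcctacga
Snhg12 (chr4:132308643-132308702, plus strand): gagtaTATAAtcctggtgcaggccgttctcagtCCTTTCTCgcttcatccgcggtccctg
1110038B12Rik, second annotated start (chr17:34952444-34952503, minus strand): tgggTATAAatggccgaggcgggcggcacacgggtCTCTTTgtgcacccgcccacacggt
Snhg3 (chr4:132353662-132353721, minus strand): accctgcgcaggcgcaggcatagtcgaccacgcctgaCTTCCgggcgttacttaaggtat
Snhg1 (chr19:8723452-8723511, plus strand): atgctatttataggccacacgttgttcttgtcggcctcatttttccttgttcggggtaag
Snhg20 (chr11:117076748-117076807, plus strand): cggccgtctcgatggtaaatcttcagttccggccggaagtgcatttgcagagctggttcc

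A pyrimidine run was found in 7 of the 10 windows of these members (70%) and TATAA in 5 of 10 (50%). Among all 32851 windows the shares were 40.9% and 3.51%, and they were 45.5% and 1.64% when the other strand was read, on which the members' windows held the run in 40% and TATAA in 20%. Windows of ribosomal protein genes, the classic TOP genes, held the run in 64.7% and TATAA in 5.88%. The run began at the start itself in Snhg8 and at the second start of 1110038B12Rik, and 9 bases after it in Snhg5. The first annotated start of Gas5 held no run. Of the 5 members called higher with rapamycin in any pair (below), Gas5, Snhg5, Snhg12 and 1110038B12Rik held a run in at least 1 window and Snhg6 had no entry, whereas Snhg3 and Snhg8 held a run and were not called higher in any. These matches are descriptions of letters in the windows and no sites of action.

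Total counts ran from 8883870 to 35224669 per library, and mean insert sizes from 175 to 239 nt at 3 months and from 223 to 308 nt at 9 months, so that age and library preparation cannot be told apart. Tsc1 RNA was lower in TSCmKO than in CON libraries in all 4 comparisons of genotype, with log2 fold changes of -1.99 and -1.55 under vehicle and -1.90 and -1.97 under rapamycin, and no overlap between the genotypes. Markers of fast muscle fibers (10 genes) summed to 108652 to 213962 CPM in the 40 libraries, with differences between groups given below. Blood markers exceeded 2000 CPM in 3 libraries, 3mTSCmKO replicate 3 (9027 CPM), 9mCON replicate 1 (7055 CPM) and 9mCON+RM replicate 1 (2825 CPM), and values that change without them are given below. Reads shared with other genes could affect 3 members: 13.3% of the stretches of 31 bases in Snhg5 transcripts were found in other genes, mostly 9330159M07Rik, 7.94% of those in Snhg3 in the overlapping gene Rcc1, and 1.02% of those in Snhg1, mostly in Gm13270, against 0% in the other members. Gas5, Snhg6 and Snhg3 also overlap genes on the opposite strand (Zbtb37, Mcmdc2 and Gm17300). The authors quantified these directional libraries by strand.

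Gas5 was the most abundant member by far. In TPM, a unit corrected for transcript length, its lowest library held 80.0 TPM, above the highest library of any other member, 76.8 TPM of Snhg6. Its group means ran from 92.9 TPM in 3mTSCmKO to 293 TPM in 9mTSCmKO+RM. Snhg6 followed with means of 29.3 to 51.1 TPM, Snhg5 with 16.2 to 57.2 TPM, Snhg8 with 18.7 to 34.0 TPM and 1110038B12Rik with 8.85 to 33.0 TPM. The least abundant were Snhg1 at 11.04 to 25.2 TPM, Snhg12 at 6.79 to 22.8 TPM, Snhg20 at 6.77 to 12.7 TPM and Snhg3 at 6.16 to 13.1 TPM. The lowest group mean in TPM belonged to a vehicle group in 7 of the 9 members and the highest to 9mTSCmKO+RM in 6 of 9. In CPM the highest mean of 1110038B12Rik lay in 9mCON+RM instead (12.3 against 11.9 CPM in 9mTSCmKO+RM).

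**Figure D1:**
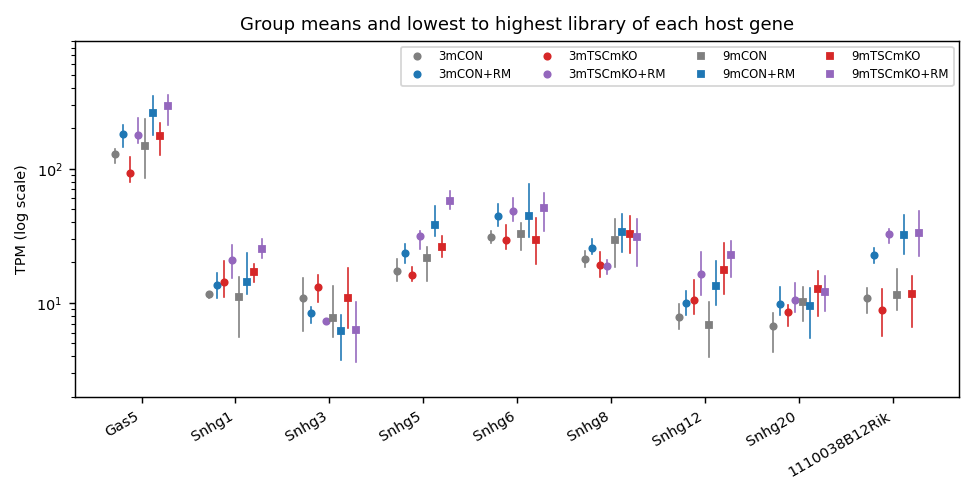
Levels of the 9 members in TPM (log axis) in the 8 groups, with points at the mean of 5 libraries and lines from the lowest to the highest library. The lines of Gas5, from 80.0 to 354 TPM, lie above those of all other members.

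In CPM, which served to compare a gene between groups, the highest group mean exceeded the lowest 4.05-fold in 1110038B12Rik, 3.55-fold in Snhg5, 3.17-fold in Snhg12 and 2.91-fold in Gas5. The range was 2.23-fold in Snhg1, 2.11-fold in Snhg8, 2.05-fold in Snhg3, 1.82-fold in Snhg20 and 1.80-fold in Snhg6. When the 8 groups were ordered by mean for each member, every neighbouring pair of groups overlapped, for all 9 members. This order puts the closest means side by side, so it says nothing about groups farther apart, some of which did not overlap (below). Libraries of a group differed more at 9 months, where the median coefficient of variation over members and groups was 32.9%, than at 3 months, where it was 14.7%. Single libraries were low or high in most members at once. The lowest of their group in 8 of 9 members each were 9mCON replicate 5, 9mCON+RM replicate 4, 9mTSCmKO replicate 2 and 9mTSCmKO+RM replicate 3. At 3 months 3mCON+RM replicate 5 was the lowest in 7 of 9, and 9mTSCmKO+RM replicate 1 was the highest in 7 of 9.

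**Figure D2:**
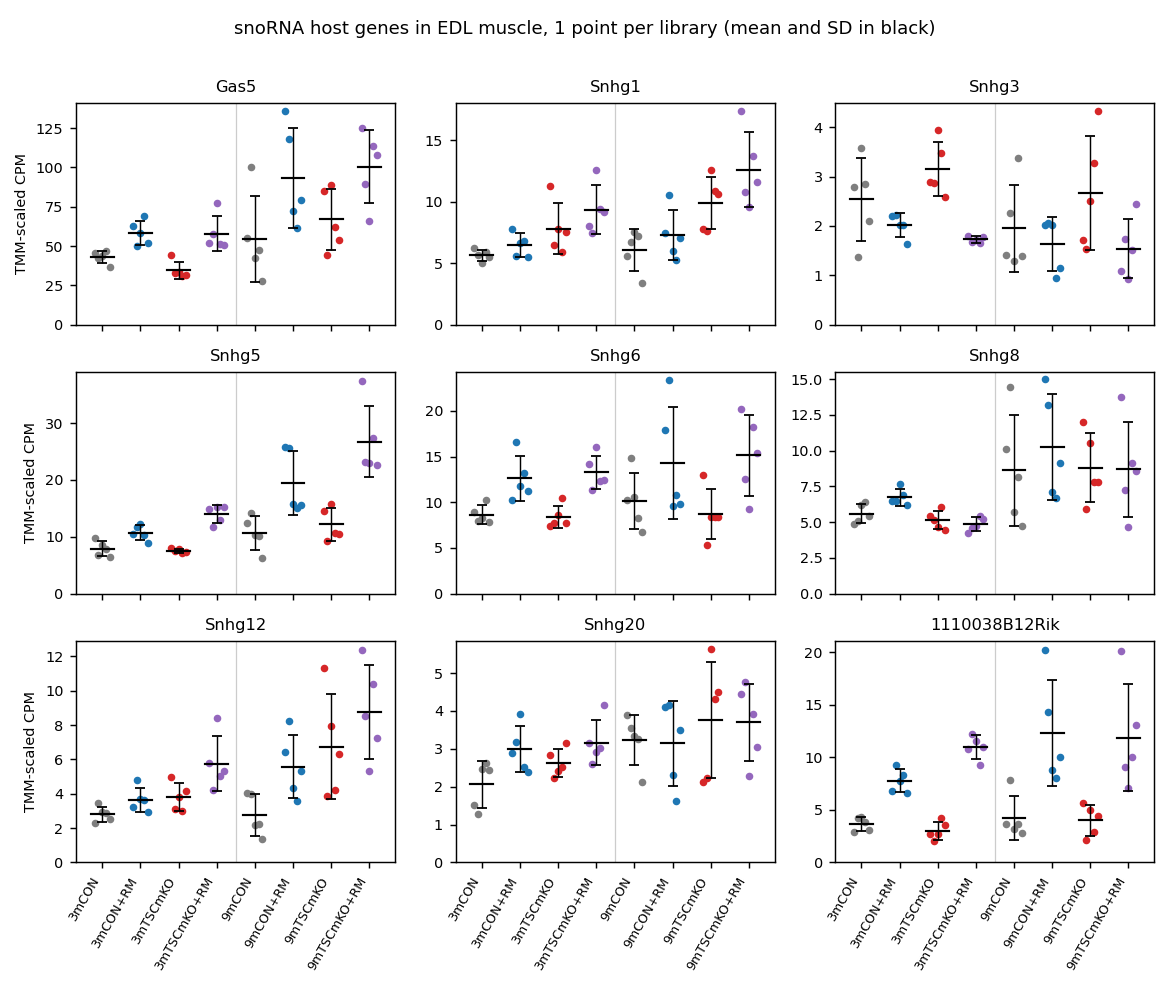
TMM-scaled CPM of each member in the 40 libraries by group, with 1 point per library and black bars for the mean and SD of 5. Gas5, Snhg1, Snhg5, Snhg6, Snhg12 and 1110038B12Rik, 6 of 9, have the higher mean in the rapamycin group of each pair, and most of the 9-month groups spread more than the 3-month groups.

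The first question was whether 3 days of rapamycin changed these RNAs. Rapamycin raised 4 of the 9 members in both TSCmKO groups, and the same 4 genes were called at both ages: Gas5, Snhg5, Snhg6 and 1110038B12Rik. In 9mCON Gas5, Snhg5 and Snhg12 were called higher, 3 of the 8 members tested there. Snhg3 was the only member called lower, in 3mTSCmKO and in 9mTSCmKO. In 3mCON no member passed an adjusted p of 0.05, although 8 of 9 had a log2 fold change above 0.

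The members were chosen with earlier results of these data known, so the counts called are not independent of those results. Against all genes tested by edgeR's quasi-likelihood test, the counts read as follows. In 3mTSCmKO 4 of 9 members were called higher and 1 lower, where 10.6% of all genes were called higher and 13% lower, and in 9mTSCmKO the counts were again 4 and 1, where 15.8% were called higher and 16.8% lower. In 9mCON 3 of 8 were called higher, where 5.03% of all genes were, with 1110038B12Rik not counted because its rise there was known. In 3mCON 0 of 9 were called, where 0.679% of all genes were called in either direction; 3 of 9 members had an unadjusted p under 0.05, and DESeq2 and limma called 1 member each. With upper-quartile factors the share of higher genes among all those called in 3mTSCmKO was 55.7% rather than 44.9%, with 5 members called as before. The median log2 fold change of the members was 0.43 in 3mCON, 0.39 in 9mCON (over the 8 members tested there), 0.59 in 3mTSCmKO and 0.37 in 9mTSCmKO, beside -0.00, -0.02, 0.01 and -0.04 over all genes tested.

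Groups without overlap were counted too. All 5 rapamycin libraries lay above all 5 vehicle libraries for 2 members in 3mCON (Gas5 and 1110038B12Rik), where this held for 2.69% of all genes, and for Snhg5 in 9mCON, where it held for 2.9%. 1110038B12Rik also did not overlap in 9mCON, as a description only. In 3mTSCmKO it held for 4 members (Gas5, Snhg5, Snhg6 and 1110038B12Rik) and for 9.53% of all genes, and in 9mTSCmKO for 2 (Snhg5 and 1110038B12Rik) and for 8% of all genes. The summed satellite cell markers (4 genes) also lay higher with rapamycin without overlap in each of the 4 pairs, at 23.3 to 27.1 against 31.1 to 36.4 CPM in 3mCON and 17.5 to 24.2 against 32.3 to 52.4 CPM in 3mTSCmKO. At 9 months they held 18.5 to 28.2 against 38.9 to 51.6 CPM in CON and 12.1 to 23.1 against 36 to 43.7 CPM in TSCmKO. In 9mCON the fibroblast and tendon markers (10 genes) summed to 875 to 2042 CPM under vehicle and 150.0 to 631 CPM with rapamycin, where 10 of 10 were called lower, against 6.82% of all genes. The macrophage markers (6 genes) summed to 52 to 151 and 13.7 to 42 CPM, and 5 of 6 were called lower. In 9mTSCmKO the median sums of these 2 lists also fell with rapamycin, from 715 to 406 and from 70.5 to 43.9 CPM. At 3 months they rose instead, from 2005 to 2226 and 73.2 to 113 CPM in 3mCON. In 3mTSCmKO they rose from 1431 to 2449 and from 79.1 to 128 CPM. Vehicle and rapamycin overlapped in these other pairs. The fast fiber markers lay higher with rapamycin without overlap at 9 months, at 165754 to 190871 against 194844 to 213962 CPM in CON and 111700.0 to 130333 against 153926 to 194569 CPM in TSCmKO. At 3 months they overlapped, at 128730.0 to 164785 against 157103 to 180601 CPM in CON and 108652 to 183025 against 157490.0 to 188435 CPM in TSCmKO. None of these markers was at 0 in a whole group, and their part in the results was not tested.

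**Figure D3:**
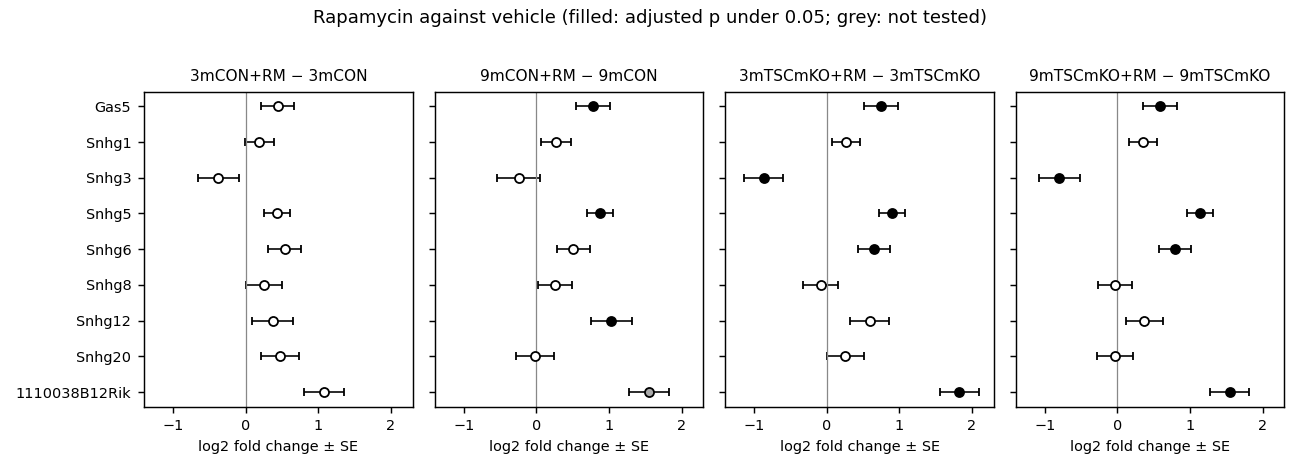
Log2 fold change (rapamycin against vehicle) of each member in 3mCON, 9mCON, 3mTSCmKO and 9mTSCmKO from the edgeR fit, with bars for the SE. Filled points have an adjusted p under 0.05, and the grey point was not tested. 1110038B12Rik shows the largest values, from 1.07 to 1.82, and Snhg3 lies below 0 in all 4.

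1110038B12Rik, which hosts Snord52, had the largest log2 fold changes among the members. Its libraries held 2.85, 4.27, 4.29, 3.86 and 3.12 CPM in 3mCON and 6.79, 9.27, 7.75, 8.34 and 6.64 CPM in 3mCON+RM. In 3mTSCmKO they held 2.7, 2.02, 2.67, 4.19 and 3.6 CPM and in 3mTSCmKO+RM 10.8, 12.3, 11.5, 9.26 and 11 CPM. Every rapamycin library at 3 months thus lay above every vehicle library of either genotype. The log2 fold change was 1.07 in 3mCON (SE 0.28), just short of the threshold with an adjusted p of 0.0532, and 1.82 in 3mTSCmKO (SE 0.27, adjusted p = 3.16e-06). Without the 3 libraries rich in blood markers, the 3mCON value passed (1.07, adjusted p = 0.0385), as it did with upper-quartile factors (0.0441), and DESeq2 gave an adjusted p of 0.011. limma on log2(TPM + 1) gave 1.01, adjusted p = 0.0141, and the fit on the 2 groups alone 1.07, adjusted p = 0.00269.

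At 9 months 1110038B12Rik held 3.66, 7.84, 3.16, 3.65 and 2.84 CPM in 9mCON and 20.2, 14.3, 8.82, 8.07 and 10.05 CPM in 9mCON+RM. In 9mTSCmKO the values were 5.61, 2.12, 5.02, 2.88 and 4.46 CPM and in 9mTSCmKO+RM 20.1, 9.1, 7.06, 10.1 and 13 CPM. Replicate 2 stood above the other 9mCON libraries and replicate 1 above the others in both rapamycin groups, and vehicle and rapamycin did not overlap within either genotype. The log2 fold change was 1.56 in 9mCON, a description without a test, and 1.55 in 9mTSCmKO (SE 0.27, adjusted p = 2.85e-05). The TSCmKO calls held when any single library was left out.

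Snhg5, host of Snord50a and Snord50b, rose with rapamycin in 3 of the 4 pairs. In 3mCON its libraries held 9.73, 6.82, 8.46, 7.91 and 6.41 CPM and in 3mCON+RM 10.5, 11.8, 12.2, 10.3 and 8.82 CPM, so that the groups overlapped. In 3mTSCmKO they held 8.03, 7.44, 7.8, 7.13 and 7.26 CPM and in 3mTSCmKO+RM 15, 11.7, 15.2, 12.9 and 15.3 CPM. The vehicle libraries of 3mTSCmKO lay close together, and every rapamycin library was above all of them. The log2 fold change was 0.89 in 3mTSCmKO (SE 0.18, adjusted p = 0.000274) and 0.43 in 3mCON (SE 0.18, adjusted p = 0.426).

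In 9mCON Snhg5 held 12.4, 14.2, 10.4, 10.2 and 6.19 CPM and in 9mCON+RM 25.8, 25.6, 15.7, 15 and 15.5 CPM. In 9mTSCmKO it held 14.6, 9.29, 15.8, 10.7 and 10.4 CPM and in 9mTSCmKO+RM 37.4, 23.1, 23, 27.3 and 22.7 CPM. Neither pair overlapped, although 9mTSCmKO+RM replicate 1 and the first 2 replicates of 9mCON+RM stood well above the rest of their groups. Snhg5 was higher on the log2 scale by 0.88 in 9mCON (SE 0.18, adjusted p = 0.0011) and 1.13 in 9mTSCmKO (SE 0.18, adjusted p = 5.5e-06), and these calls held without any single library. 9330159M07Rik, the gene with which Snhg5 shares most of its ambiguous stretches, rose by less in TSCmKO (0.44, adjusted p = 0.00126 at 3 months and 0.43, adjusted p = 0.0014 at 9 months) and was not called in CON (-0.18, adjusted p = 0.654 and 0.06, adjusted p = 0.78). How reads were split between them was not tested.

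Gas5, host of 9 snoRNA loci, was called higher in 9mCON and in both TSCmKO groups. At 3 months its libraries held 45.3, 42.4, 43.7, 47.2 and 36.8 CPM in 3mCON and 62.9, 50.2, 58.2, 68.9 and 51.8 CPM in 3mCON+RM. They held 44.2, 33, 33.2, 31 and 31.3 CPM in 3mTSCmKO and 51.6, 57.7, 77.3, 51.6 and 50.8 CPM in 3mTSCmKO+RM. Neither pair overlapped, and 3mTSCmKO+RM replicate 3 was far above the other 4 of its group. On the log2 scale the change was 0.44 in 3mCON (SE 0.23, adjusted p = 0.602) and 0.74 in 3mTSCmKO (SE 0.23, adjusted p = 0.016). With only the 2 groups fitted, Gas5 was called in 3mCON as well (0.44, adjusted p = 0.0252). Without 3mTSCmKO+RM replicate 3 the value in 3mTSCmKO was 0.62, adjusted p = 0.0608.

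The 9-month groups overlapped. Gas5 held 55.3, 100.2, 42.6, 47.6 and 27.8 CPM in 9mCON and 136, 118, 72.6, 61.5 and 79.6 CPM in 9mCON+RM, where replicate 2 of 9mCON exceeded 3 of the 5 rapamycin libraries. In 9mTSCmKO Gas5 held 85.3, 44.1, 89.2, 61.9 and 54.1 CPM and in 9mTSCmKO+RM 125, 89.7, 65.8, 114 and 108 CPM, where only replicate 3 of the rapamycin group fell among the vehicle libraries. The change on the log2 scale was 0.78 in 9mCON (SE 0.23, adjusted p = 0.0223) and 0.59 in 9mTSCmKO (SE 0.23, adjusted p = 0.0464).

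These 2 calls depended on single libraries. For Gas5 in 9mCON the call was lost without 9mCON replicate 3 (0.70, adjusted p = 0.0604), replicate 4 (0.73, adjusted p = 0.0501) or replicate 5 (0.61, adjusted p = 0.0742), without 9mCON+RM replicate 1 (0.62, adjusted p = 0.0828) or replicate 2 (0.68, adjusted p = 0.0778), without the libraries rich in blood markers (0.62, adjusted p = 0.145), and with only the 2 groups fitted (0.77, adjusted p = 0.184). In 9mTSCmKO Gas5 lost its call in 7 of 10 fits without 1 library: without vehicle replicate 2 (0.45), 4 (0.54) or 5 (0.52), and without rapamycin replicate 1 (0.48), 2 (0.62), 4 (0.52) or 5 (0.56). The call in 9mTSCmKO was also lost without the filter on low counts (0.61, adjusted p = 0.0608), with insert size as a term (0.56, adjusted p = 0.0859) and with only the 2 groups fitted (0.57, adjusted p = 0.070). The direction was the same in all of these fits.

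Snhg6, host of Snord87, was called in TSCmKO at both ages. In 3mTSCmKO its libraries held 7.44, 7.7, 8.63, 10.4 and 7.77 CPM and in 3mTSCmKO+RM 14.2, 11.3, 16, 12.4 and 12.4 CPM, without overlap. In 9mTSCmKO they held 13, 5.35, 8.37, 8.36 and 8.35 CPM and in 9mTSCmKO+RM 20.2, 12.5, 9.24, 18.2 and 15.4 CPM, where vehicle replicate 1 lay among the rapamycin libraries. Snhg6 was higher on the log2 scale by 0.65 at 3 months (SE 0.22, adjusted p = 0.0286) and 0.79 at 9 months (SE 0.22, adjusted p = 0.00608). In controls the values were 0.54 (adjusted p = 0.409) in 3mCON and 0.51 (adjusted p = 0.144) in 9mCON, where the gene was called without 9mCON replicate 2 (0.69, adjusted p = 0.0446). With only the 2 groups fitted, Snhg6 was called in 3mCON (0.53, adjusted p = 0.0387). The 3-month TSCmKO call was lost without vehicle replicate 1 (0.62), 2 (0.63) or 5 (0.62) and without rapamycin replicate 1 (0.63) or 3 (0.58).

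Snhg12, which hosts H/ACA snoRNAs and Snord99, was called higher with rapamycin in 9mCON. Its libraries held 4.07, 4.0, 2.19, 2.24 and 1.34 CPM in 9mCON and 6.41, 8.22, 4.34, 3.61 and 5.33 CPM in 9mCON+RM, with the 2 highest vehicle libraries above the lowest rapamycin library. The log2 fold change was 1.03 (SE 0.28, adjusted p = 0.0125), and the call was lost without 9mCON+RM replicate 2 (0.85, adjusted p = 0.0668) and with only the 2 groups fitted (1.02, adjusted p = 0.0812). Snhg12 gave 0.37 in 3mCON (adjusted p = 0.811), 0.59 in 3mTSCmKO (adjusted p = 0.108) and 0.37 in 9mTSCmKO (adjusted p = 0.281). The vehicle libraries of 9mTSCmKO held 3.88 to 11.3 CPM. In 3mTSCmKO Snhg12 was called by limma on log2(TPM + 1) (0.59, adjusted p = 0.0472) and with only the 2 groups fitted (0.59, adjusted p = 0.0274).

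Snhg3, whose introns hold the H/ACA snoRNAs Snora73a and Snora73b, went the other way. In 3mTSCmKO its libraries held 2.9, 2.87, 3.95, 3.48 and 2.59 CPM and in 3mTSCmKO+RM 1.81, 1.68, 1.72, 1.65 and 1.78 CPM. All rapamycin libraries of this pair were below all vehicle libraries and lay close together. In 9mTSCmKO Snhg3 held 1.71, 1.53, 2.51, 3.29 and 4.33 CPM and in 9mTSCmKO+RM 1.09, 1.73, 0.924, 1.51 and 2.44 CPM, with overlap. On the log2 scale it fell by 0.87 at 3 months (SE 0.27, adjusted p = 0.0166) and fell by 0.80 at 9 months (SE 0.28, adjusted p = 0.0285).

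In controls Snhg3 gave -0.38 in 3mCON (adjusted p = 0.797) and -0.24 in 9mCON (adjusted p = 0.671). The 3mTSCmKO call was lost without vehicle replicate 3, the library richest in blood markers (-0.77, adjusted p = 0.0539), and without all 3 libraries rich in these markers (-0.77, adjusted p = 0.0516). The 9mTSCmKO call of Snhg3 was lost without vehicle replicate 4 (-0.74) or 5 (-0.55) and without rapamycin replicate 1 (-0.72) or 3 (-0.65), and with only the 2 groups fitted (-0.81, adjusted p = 0.123). Snhg3 overlaps Rcc1, a regulator of chromosome condensation, by 5592 bases on the same strand; Rcc1 was not called in TSCmKO (-0.24, adjusted p = 0.439 and -0.12, adjusted p = 0.685). Counts of Snhg3 were low, from 11 to 109 per library.

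The 3 other members were not called by edgeR in any rapamycin pair. Snhg1, the host with the second most snoRNA loci, had log2 fold changes of 0.19 in 3mCON, 0.28 in 9mCON, 0.27 in 3mTSCmKO and 0.35 in 9mTSCmKO, with adjusted p-values of 0.914, 0.445, 0.356 and 0.171. In 9mTSCmKO limma called Snhg1 at both pseudocounts (0.53, adjusted p = 0.028 with 1 and 0.56, adjusted p = 0.033 with 0.1). Snhg8, host of Snora24, gave 0.25, 0.26, -0.09 and -0.03 in the same order, with 95% intervals of -0.58 to 0.41 in 3mTSCmKO and -0.51 to 0.45 in 9mTSCmKO. Snhg20, which hosts a small Cajal body RNA, gave 0.48, -0.02, 0.26 and -0.03, with intervals of -0.25 to 0.76 and -0.54 to 0.47 in TSCmKO. Snhg8 in 3mTSCmKO+RM held 4.26 to 5.45 CPM, against 4.42 to 6.07 CPM under vehicle, and the other pairs of these members overlapped likewise.

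Whether rapamycin acted differently in TSCmKO and CON was tested by the difference between the 2 changes. No member was called: 0 of 9 at 3 months, where 3.45% of all genes were, and 0 of 8 at 9 months, where 4.87% were and 1110038B12Rik is left out because its change in 9mCON was known; 0 members had an unadjusted p under 0.05 in either, and DESeq2 and limma called 0. At 3 months the largest difference was that of 1110038B12Rik, 0.75 greater on the log2 scale in TSCmKO (95% interval -0.02 to 1.53, adjusted p = 0.355). Fitted on these 4 groups alone it was called (0.75, adjusted p = 0.0392). For Gas5 the interval was -0.35 to 0.97 at 3 months and -0.85 to 0.46 at 9 months, and for Snhg5 -0.06 to 0.99 and -0.26 to 0.76. An adjusted p above the threshold does not show that the genotypes responded alike.

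The rapamycin changes were also set against each other by age. In CON 0 of 8 members (1110038B12Rik left out again) differed between 3 and 9 months, where 0.938% of all genes did, and in TSCmKO 0 of 9, where 1.91% did, with 0 at an unadjusted p under 0.05 and 0 called by DESeq2 or limma in both. Among the genes called in TSCmKO, the share with a difference above 0 (change at 9 months minus change at 3 months) was 43.2%. This share was 27.7% under upper-quartile factors, and 14.6% and 13.1% with limma on log2(TPM + 1) and log2(TPM + 0.1). The change of Gas5 was 0.34 greater at 9 months in CON (-0.32 to 0.998) and differed by -0.16 in TSCmKO (-0.81 to 0.50). For Snhg12 the difference in CON was 0.66 (-0.15 to 1.47).

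The second question was what the loss of Tsc1 did. Under vehicle at 9 months Snhg1 and Snhg12 were called higher in TSCmKO than in CON, 2 of 9 members. This count is near the background, as 19.1% of all genes were called higher. Snhg1 held 5.6, 6.71, 7.55, 7.25 and 3.35 CPM in 9mCON and 7.74, 7.64, 12.6, 10.8 and 10.6 CPM in 9mTSCmKO, and Snhg12 held 4.07, 4.0, 2.19, 2.24 and 1.34 CPM and 11.3, 3.88, 7.92, 4.21 and 6.29 CPM. All 9mTSCmKO libraries of Snhg1 exceeded all 9mCON libraries, though by little, and those of Snhg12 overlapped. The log2 fold changes were 0.71 for Snhg1 (SE 0.20, adjusted p = 0.00519) and 1.29 for Snhg12 (SE 0.28, adjusted p = 0.000308). Both calls held without any single library. Gas5 was called too without 9mCON replicate 2 (0.63, adjusted p = 0.0176), and Snhg3 without 9mCON replicate 4 (0.76, adjusted p = 0.0372). In the same comparison 7 of 10 fibroblast and tendon markers were called lower, against 18.9% of all genes, at 875 to 2042 CPM in 9mCON and 337 to 1001 CPM in 9mTSCmKO. The fast fiber markers were lower too, without overlap (165754 to 190871 against 111700.0 to 130333 CPM), and the part of both in the result was not tested.

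The other members were not called between genotypes at 9 months, with log2 fold changes from -0.21 (Snhg6) to 0.45 (Snhg3). Gas5 gave 0.29 (adjusted p = 0.325) and was called higher without 9mCON replicate 2 (0.63, adjusted p = 0.0176). Without 9mCON replicate 4 Snhg3 was called (0.76, adjusted p = 0.0372). 1110038B12Rik, the member with the largest rapamycin changes, gave -0.05 (95% interval -0.62 to 0.51), and Snhg5 gave 0.19 (-0.17 to 0.56).

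At 3 months under vehicle 0 of 9 members were called, where 19.8% of all genes were called in either direction; 1 member, Snhg1, had an unadjusted p under 0.05, and DESeq2 and limma called 0. Snhg1 held 6.21, 5.64, 5.03, 5.89 and 5.49 CPM in 3mCON and 11.3, 6.46, 7.8, 5.94 and 7.55 CPM in 3mTSCmKO, with replicate 1 of 3mTSCmKO well above the rest. Its log2 fold change was 0.46 (SE 0.20, adjusted p = 0.107). Gas5 was lower in 4 of the 5 3mTSCmKO libraries than in any 3mCON library, and its log2 difference was -0.32 (SE 0.23, adjusted p = 0.367). Fitted on these 2 groups alone, Snhg1 (0.46, adjusted p = 0.0403) and Gas5 (-0.32, adjusted p = 0.0363) were called.

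Among rapamycin-treated mice, 1 of 9 members was called higher in 9mTSCmKO+RM than in 9mCON+RM, where 11.3% of all genes were called higher. This count is near the background, and the member was Snhg1. It held 7.49, 10.6, 6.0, 5.24 and 7.08 CPM in 9mCON+RM and 17.4, 10.8, 9.62, 13.7 and 11.6 CPM in 9mTSCmKO+RM, with only replicate 2 of the former inside the range of the latter (0.78, adjusted p = 0.00365). In this comparison limma on log2(TPM + 1) also called Snhg5 (0.58, adjusted p = 0.00258) and Snhg12 (0.74, adjusted p = 0.0109), for which edgeR gave 0.45, adjusted p = 0.0666 and 0.63, adjusted p = 0.0875. By edgeR Snhg5 was called without 9mCON+RM replicate 1 (0.57, adjusted p = 0.0239) or 2 (0.57, adjusted p = 0.0264). It was also called without the libraries rich in blood markers (0.56, adjusted p = 0.0298). With the replicate number as a block, Snhg5 was called too (0.45, adjusted p = 0.0311). Snhg12 was called without 9mCON+RM replicate 2 (0.82, adjusted p = 0.0351) or 9mTSCmKO+RM replicate 3 (0.77, adjusted p = 0.0405). The fast fiber markers were lower in 9mTSCmKO+RM than in 9mCON+RM without overlap (153926 to 194569 against 194844 to 213962 CPM), and their part was not tested. In 3-month-old treated mice 0 of 9 members were called, where 10% of all genes were; 3 had an unadjusted p under 0.05 (Snhg1, Snhg5 and Snhg12), and DESeq2 and limma called 0. Fitted on these 2 groups alone, these 3, Snhg8 and 1110038B12Rik were called. Snhg8 was lower in every 3mTSCmKO+RM library than in every 3mCON+RM library, at 4.26 to 5.45 against 6.17 to 7.63 CPM (-0.47, adjusted p = 0.273). The log2 fold change of Snhg1 between genotypes was thus above 0 in all 4 comparisons, which partly share libraries with those of rapamycin: 0.46, 0.71, 0.54 and 0.78.

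**Figure D4:**
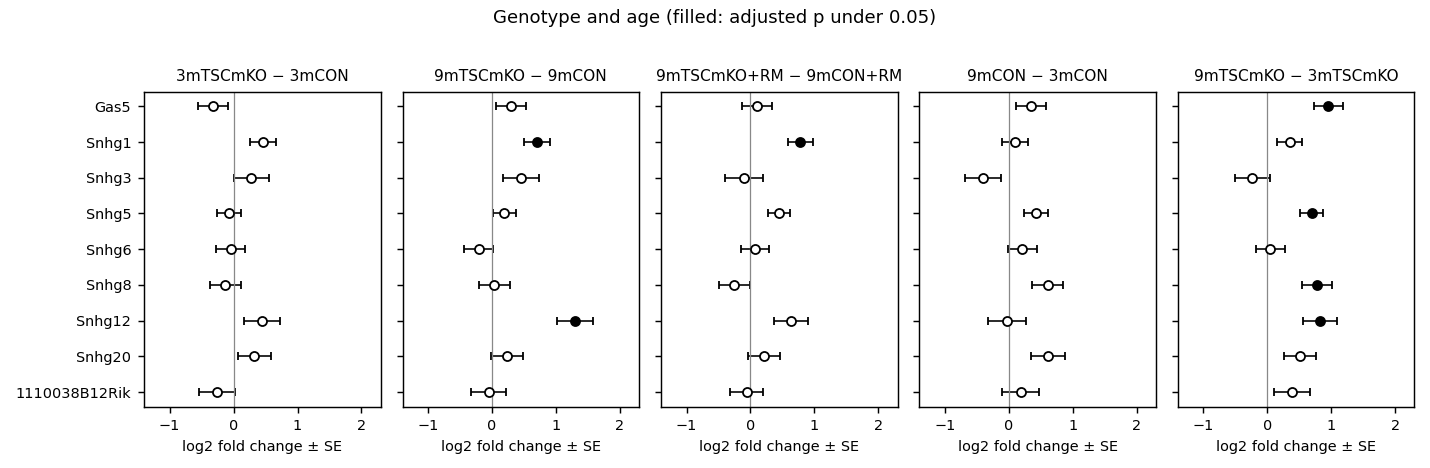
Log2 fold change of each member between genotypes (TSCmKO against CON, under vehicle at both ages and under rapamycin at 9 months) and between ages (9 against 3 months, vehicle), with bars for the SE and filled points for an adjusted p under 0.05. Snhg1 lies above 0 in these 3 comparisons of genotype, and Gas5 is higher at 9 months in TSCmKO by 0.96.

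The third comparison was between ages under vehicle. In TSCmKO 4 of 9 members were called higher at 9 than at 3 months (Gas5, Snhg5, Snhg8 and Snhg12), where 19.1% of all genes were called higher. Gas5 held 44.2, 33, 33.2, 31 and 31.3 CPM in 3mTSCmKO and 85.3, 44.1, 89.2, 61.9 and 54.1 CPM in 9mTSCmKO, where replicate 2 of the older group fell just below replicate 1 of the younger. Its log2 fold change was 0.96 (SE 0.23, adjusted p = 0.00158). Snhg5 ran from 7.13 to 8.03 CPM at 3 months and from 9.29 to 15.8 CPM at 9 months, without overlap (log2 fold change 0.69, SE 0.18, adjusted p = 0.00303).

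Snhg8 held 5.4, 5.16, 4.67, 6.07 and 4.42 CPM in 3mTSCmKO and 12, 5.94, 10.5, 7.78 and 7.82 CPM in 9mTSCmKO, overlapping in 1 library (log2 fold change 0.78, SE 0.24, adjusted p = 0.0103). For Snhg12 the vehicle libraries held 5.0, 3.13, 3.8, 3.0 and 4.17 CPM and 11.3, 3.88, 7.92, 4.21 and 6.29 CPM (log2 fold change 0.82, SE 0.27, adjusted p = 0.0145), and the call was lost without 9mTSCmKO replicate 1 (0.55, adjusted p = 0.102). With insert size as a term, which leaves out 9mTSCmKO+RM replicate 5, the calls of Snhg5 (0.75, adjusted p = 0.0545), Snhg8 (0.75, adjusted p = 0.144) and Snhg12 (0.74, adjusted p = 0.201) were lost, and that of Gas5 was kept (1.03, adjusted p = 0.0401). Snhg1 was called without 3mTSCmKO replicate 1 (0.52, adjusted p = 0.0418), and Snhg20 without 9mTSCmKO replicate 1 (0.66, adjusted p = 0.0362) or 2 (0.65, adjusted p = 0.0388). Between these ages 8 of 10 fibroblast and tendon markers and 4 of 5 blood markers were called lower in TSCmKO, against 18.3% of all genes, which was not tested for its part either.

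In CON 0 of 9 members were called between ages, where 1.02% of all genes were called in either direction; 3 had an unadjusted p under 0.05 (Snhg5, Snhg8 and Snhg20), and DESeq2 and limma called 0. The fast fiber markers lay higher at 9 months without overlap (128730.0 to 164785 against 165754 to 190871 CPM), and their part was not tested. Gas5 gave 0.34 (SE 0.23, adjusted p = 0.45), Snhg8 0.61 (adjusted p = 0.179) and Snhg20 0.61 (adjusted p = 0.211). Without 9mCON replicate 5, the lowest library of its group in 8 members, Snhg5 (0.57, adjusted p = 0.0418) and Snhg8 (0.77, adjusted p = 0.0426) were called. The difference between the age changes of the genotypes was called for 0 of 9 members, where 4.94% of all genes were called, with 1 (Snhg12, 0.85, 95% interval 0.06 to 1.65) at an unadjusted p under 0.05 and 0 by DESeq2 or limma. For Gas5 it was 0.61 (-0.05 to 1.28, adjusted p = 0.298), and 0.95, adjusted p = 0.0444 without 9mCON replicate 2.

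Other noncoding hosts behaved unevenly. Of 13 further hosts on the list, 10 were in the table and 9 were tested. Under rapamycin 1 was called higher in 3mCON, 2 in 9mCON and 2 in 3mTSCmKO, and in 9mTSCmKO 1 was called higher and 3 lower. Over all genes 0.362%, 5.03%, 10.6% and 15.8% were called higher in these pairs, and 16.8% lower in 9mTSCmKO. Epb41l4aos, a host antisense to Epb41l4a, rose in all 4 pairs, with log2 fold changes of 1.24 in 3mCON (adjusted p = 0.0488), 1.997 in 9mCON (adjusted p = 8.72e-05), 2.27 in 3mTSCmKO (adjusted p = 1.74e-06) and 2.05 in 9mTSCmKO (adjusted p = 4.94e-06). Zfas1, a further noncoding host, rose in 9mCON (0.97, adjusted p = 0.0196) and 3mTSCmKO (1.02, adjusted p = 0.00648).

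In 9mTSCmKO Snhg15 (-1.03, adjusted p = 0.0271) and Snhg11 (-0.74, adjusted p = 0.000723) had the largest changes among the 3 hosts that fell with rapamycin. These 9 hosts had a median log2 fold change of -0.42 in that pair, with the members at 0.37. Between genotypes at 9 months under vehicle, 5 of these 9 hosts were called higher, where 19.1% of all genes were, and 1 lower. Snhg11 led with 2.44 (adjusted p = 1.34e-13), followed by Snhg18 at 1.26 and Dancr at 1.14.

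**Figure D5:**
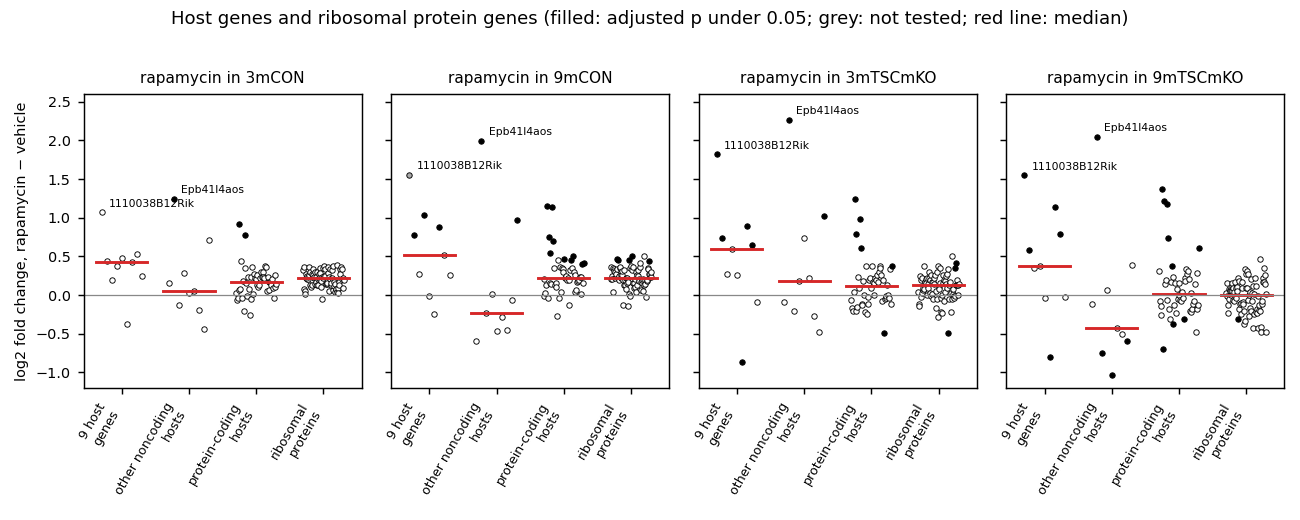
Log2 fold change (rapamycin against vehicle) of the members, the other noncoding hosts, the protein-coding hosts and the ribosomal protein genes in the 4 pairs, with 1 point per tested gene, filled for an adjusted p under 0.05 and grey where not tested, and a red line at the median of all points. Epb41l4aos and 1110038B12Rik lie at the top of the host genes, while the medians of ribosomal protein genes lie between 0.01 and 0.22.

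Protein-coding snoRNA hosts were also examined. Of 48 tested, 2 were called higher in 3mCON, 10 in 9mCON, 5 in 3mTSCmKO and 6 in 9mTSCmKO, while 1 in 3mTSCmKO and 3 in 9mTSCmKO were called lower. Over all genes the shares called higher were 0.362% in 3mCON, 5.03% in 9mCON, 10.6% in 3mTSCmKO and 15.8% in 9mTSCmKO, so that the counts in CON lie above the background and those in TSCmKO near or below it. Eef2, the translation elongation factor 2 and itself a TOP gene, rose in all 4 pairs, by 0.92, 1.16, 1.25 and 1.38 on the log2 scale. Ipo7, an importin that carries ribosomal proteins into the nucleus, rose by 0.78, 1.14, 0.98 and 1.17, and Eif4a2, an initiation factor, by 0.75 in 9mCON, 0.79 in 3mTSCmKO and 1.21 in 9mTSCmKO.

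Cytosolic ribosomal protein genes (79 tested) moved little with rapamycin, with medians of 0.22 in 3mCON, 0.22 in 9mCON, 0.13 in 3mTSCmKO and 0.01 in 9mTSCmKO. In 9mCON 5 were called higher, among them Rpl7a (0.50) and Rpl4 (0.46), in 3mTSCmKO 2 higher and 1 lower, and in 9mTSCmKO 0 higher and 1 lower. These counts of 79 stand against 5.03% of all genes higher in 9mCON, 10.6% higher and 13% lower in 3mTSCmKO and 15.8% higher and 16.8% lower in 9mTSCmKO, so that the count in 9mCON is near the background and the others are below it. Between 3 and 9 months in TSCmKO under vehicle, however, 37 of 79 were called higher, where 19.1% of all genes were, with a median of 0.38, beside 4 of 9 members with a median of 0.51 and a median of 0.00 over all genes.

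The counts of the 3 remaining lists stand against the same shares over all genes. Of proteins that bind or assemble snoRNAs, 18 were tested under rapamycin: 1 higher in 9mCON (Rpap3, 0.45), 3 in 3mTSCmKO (Znhit6 0.69, Gar1 0.67, Rpap3 0.57) and 2 in 9mTSCmKO, where 2 were called lower, Nhp2 (-0.54) among them. Of the nonsense-mediated decay factors (18 tested), 2 were called higher in 9mCON (Nbas 0.48, Smg5 0.41), 3 higher and 2 lower in 3mTSCmKO and 4 higher and 2 lower in 9mTSCmKO. Nbas, also known for its role in Golgi-to-ER transport, rose in both TSCmKO groups as well (1.05 and 0.69), and Upf2, a core factor, was called lower in 3mTSCmKO (-0.63). Growth arrest and proliferation genes, listed because of the name of Gas5, had 8 of 14 members tested, with 1 called higher and 2 lower in each TSCmKO group. In 3mTSCmKO Gas6 was higher (0.43), and Pcna (-0.47) and the cell cycle inhibitor Cdkn1b (-0.31) were lower. In 3mCON edgeR called 0 genes of the snoRNA-binding, decay, ribosomal protein and growth arrest lists, with 1, 1, 15 and 1 at an unadjusted p under 0.05. DESeq2 called 0 in each, and limma called 1 ribosomal protein gene and 0 in the others.

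The genes whose pattern over the 40 libraries was most like that of Gas5 were found by Pearson's r of log2 CPM among genes outside the members with a mean of at least 5 CPM. These were Clta (clathrin light chain A, r = 0.911), Npm1 (nucleophosmin, r = 0.898), Zfas1 (r = 0.897), Lyar (a nucleolar protein, r = 0.893) and Btf3 (a nascent polypeptide-associated factor, r = 0.887). Among the members, for which no minimum was set, Snhg5 came closest (r = 0.898), followed by Snhg8 (0.773), 1110038B12Rik (0.767), Snhg12 (0.758), Snhg6 (0.733), Snhg1 (0.591) and Snhg20 (0.496), while Snhg3 had r = -0.296. All values come from the same libraries with the same scaling and differences in depth, and they serve as a description.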

How the data were processed

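The authors trimmed single-end poly(A) RNA-seq reads of 40 EDL libraries (8 groups of 5) with cutadapt 1.9.1 and quantified them by strand with kallisto 0.43.1 on GRCm38 transcripts, as given in the submitters' processing notes and the study's methods. The deposited values are estimated counts and TPM per gene. The methods name protein-coding transcripts as the reference, yet the tables list these noncoding genes, and how they entered the reference is not given in the sources used here. 0 value columns lacked a sample label.

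Estimated counts were rounded to whole numbers. Genes with at least 1 CPM in at least 5 libraries were kept (13543 of 22844), scaled by TMM and fitted with 1 mean per group by edgeR 4.0.16 (quasi-likelihood, robust, R 4.3.3) in 15 contrasts. Standard errors and 95% intervals come from this fit, and p-values were adjusted over all genes tested by the Benjamini-Hochberg method, with a threshold of 0.05. limma 3.58.1 on log2(TPM + 1) and log2(TPM + 0.1) and DESeq2 1.42.0 were alternatives, as were other size factors, no filter, only the groups compared, insert size or the replicate number as a term, and leaving out each library. Omitting 3 libraries rich in blood markers was added after the marker levels were seen. The fit was tested on simulated data. All 9 members are named. From each other list up to 3 called genes with the largest change in the comparison described are named, except for 1 that is not reported here, and genes like Gas5 were chosen by correlation. Members and lists were chosen with earlier results of these data known. Each sample came from 1 mouse. At total counts of 8883870 to 35224669 per library, Snhg3, the member with the fewest, rested on 11 to 109 counts. Figures were drawn with matplotlib 3.10.9 (Python 3.11.15, numpy 2.4.6).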

Additional observations from a re-analysis of the deposited data

Results flagged for a closer look

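In 3 of the 72 sets of 5 libraries (9 members in 8 groups), 1 library stood apart from the others, with a gap to its nearest neighbour above Dixon's critical share of 0.71 of the group's range. Chance flags about 1 in 20 sets. Gas5 in 3mTSCmKO replicate 1 was at 44.24 CPM, with the other 4 libraries between 30.97 and 33.17 CPM. Gas5 in 3mTSCmKO+RM replicate 3 was at 77.3 CPM, with the others between 50.77 and 57.74 CPM, and the rapamycin call of Gas5 at 3 months in TSCmKO was lost without it (0.62, adjusted p = 0.0608). 1110038B12Rik in 9mCON replicate 2 was at 7.84 CPM, with the others between 2.838 and 3.658 CPM.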

How the results depend on the processing

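Of 1317 values of the 9 members under another setting (132 results, leaving out 1110038B12Rik in the 3 comparisons that hold its change in 9mCON), 11 lost the call and 26 gained one, and of 1750 values without 1 library 25 lost the call and 13 gained one. The sign changed in 32 of the former and 103 of the latter, and 0 of these were called before or after the change. The number of members called with rapamycin in 3mCON was 0, and it was 1 with upper-quartile factors, with DESeq2, with limma at either pseudocount and without the libraries rich in blood markers, and 3 when only the groups compared were fitted. Fitting only the groups compared gave 1 instead of 3 of the 8 tested in 9mCON, 3 instead of 5 in 9mTSCmKO, 2 instead of 0 for genotype at 3 months under vehicle, 5 instead of 0 under rapamycin, and 1 instead of 0 for the difference in the rapamycin change between genotypes at 3 months. For genotype at 9 months under rapamycin 1 member was called, against 3 with limma at either pseudocount, 2 without the blood-rich libraries and 2 with the replicate number as a block. For age in TSCmKO the count fell from 4 to 1 with insert size as a term. The cause of these changes was not tested. Without 1 library the counts ran from 1 to 4 for rapamycin in 9mCON (1 without 9mCON+RM replicate 2), from 3 to 5 in 3mTSCmKO (3 without 3mTSCmKO+RM replicate 3) and from 3 to 5 in 9mTSCmKO (3 without 9mTSCmKO replicate 4, 9mTSCmKO replicate 5 or 9mTSCmKO+RM replicate 1). They ran from 2 to 3 for genotype at 9 months under vehicle, from 1 to 3 under rapamycin, from 0 to 2 for age in CON (2 without 9mCON replicate 5), from 4 to 5 for age in TSCmKO and from 0 to 1 for the difference of age changes between genotypes (1 without 9mCON replicate 2). With limma on log2(TPM + 1) the share of higher genes among all those called moved by over 10 percentage points in 9 of 15 comparisons. It went from 42.5% to 31.2% for rapamycin in 9mCON, from 44.9% to 55.2% in 3mTSCmKO, from 50.3% to 61.3% for genotype at 9 months under vehicle, and under rapamycin from 56.5% to 67.0% at 3 and from 54.8% to 77.2% at 9 months. For age in CON it went from 66.7% to 28.6%, and for the differences between changes from 39.4% to 51.2% (rapamycin by genotype at 3 months), from 60.8% to 84.7% (genotype by age) and from 43.2% to 14.6% (rapamycin by age in TSCmKO).

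Deviations of libraries with the same replicate number correlated at -0.363 to 0.412, over 0.1 in 13 of 50 pairs, and 13 of 50 libraries were closest to their own number. In 0 of 10 comparisons were all 5 pairs over 0.1, so the numbers were not taken to pair samples, although 3 of 5 pairs were over 0.1 in both comparisons of genotype under rapamycin (median 0.111 at 3 months and 0.140 at 9 months). The block changed 1 call, Snhg5 between genotypes at 9 months under rapamycin (0.45, adjusted p = 0.0311). DESeq2 gave no adjusted p for Snhg3, Snhg12 and Snhg20 with rapamycin in 3mCON. Depth limits Snhg3 most, with 11 to 109 counts per library.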
